A study of Homo sapiens with 6 samples.

Results

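Peaks of accessible chromatin were examined at 10 genes that define and maintain an epithelial cell: the junction and adhesion genes CDH1, EPCAM, CLDN1, CLDN4, OCLN and TJP1, and the regulators ESRP1, ESRP2, GRHL2 and OVOL1. They are 10 of 19970 protein-coding genes placed on the RefSeq annotation of GRCh38, and all 10 were matched. They were chosen by name, with earlier results of these data known. Peaks were assigned to them by position alone: within 1 kb of a gene boundary (a gene-end peak), elsewhere inside the gene (a body peak), or outside it but within 100 kb (a flank peak). These 3 classes together are called the locus of a gene. Open chromatin was mapped by ATAC-seq, which uses the Tn5 transposase to cut and tag exposed DNA, in Nthy-ORI, an immortalised line from normal human thyroid follicular epithelium. The 3 groups of 2 samples shared a 24 h starvation in phenol-red-free medium with charcoal-stripped serum, and then received NaOH vehicle (labelled 6 h), 10 nM T3 for 6 h, or 10 nM T3 for 24 h. The question behind the design is how T3, the active thyroid hormone, alters chromatin accessibility in normal thyroid cells. With vehicle labelled at 6 h alone, the effects of hormone and of elapsed time cannot be told apart in the 24 h group. Whether both samples of a group are separate cultures is not in the labels.

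In a polarised epithelium, E-cadherin (CDH1) holds neighbouring cells together at adherens junctions and EPCAM adds a further adhesion system along the lateral membrane. Claudins and occludin form the strands of the tight junction that seals the space between cells, which in thyroid encloses the follicle lumen, and the scaffold ZO-1 (TJP1) ties these strands to actin. The splicing factors ESRP1 and ESRP2, the pioneer factor GRHL2 and the zinc-finger repressor OVOL1 keep the epithelial program on and oppose the change to a mesenchymal state, whose drivers ZEB1 and SNAI1 bind E-box sequences in junction gene promoters.

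The promoters of the tight junction genes are shown because these genes differed in whether a 24 h peak lay on the start site. RefSeq promoter entries were matched for 4 of the 10 genes (CLDN1, CLDN4, OCLN and TJP1). These 4 genes have 8 RefSeq starts in the table, and 6 windows are printed. The other 2 are that of the second OCLN start, most of which lies downstream of the first start, and that of the innermost TJP1 start, which no peak interval covers. Each sequence is the 250 bases before a RefSeq start on GRCh38.p14, read 5′ to 3′ on the strand of the gene. Capitals mark matches, on either strand, to any of 4 motifs: the E-box CACCTG, the grainyhead site AACCNGTT, the AP-1 site TGANTCA and the nuclear receptor half-site AGGTCA. The first 2 promoters carried a gene-end peak at 24 h, the next 2 carried none, and the last 2 precede inner TJP1 starts that carried a peak.
CLDN1 (chr3:190322447-190322696, minus strand): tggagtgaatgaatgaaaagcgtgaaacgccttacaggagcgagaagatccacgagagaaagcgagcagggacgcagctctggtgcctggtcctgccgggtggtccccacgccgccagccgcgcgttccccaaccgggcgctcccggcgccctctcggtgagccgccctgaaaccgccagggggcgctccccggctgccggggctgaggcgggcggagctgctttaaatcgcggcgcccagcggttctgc
OCLN (chr5:69492297-69492546, plus strand): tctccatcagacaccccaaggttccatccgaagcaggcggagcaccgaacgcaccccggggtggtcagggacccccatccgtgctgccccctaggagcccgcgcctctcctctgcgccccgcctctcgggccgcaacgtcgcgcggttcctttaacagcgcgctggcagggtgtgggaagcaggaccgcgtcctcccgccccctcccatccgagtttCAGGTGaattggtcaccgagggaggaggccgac
CLDN4 (chr7:73830746-73830995, plus strand): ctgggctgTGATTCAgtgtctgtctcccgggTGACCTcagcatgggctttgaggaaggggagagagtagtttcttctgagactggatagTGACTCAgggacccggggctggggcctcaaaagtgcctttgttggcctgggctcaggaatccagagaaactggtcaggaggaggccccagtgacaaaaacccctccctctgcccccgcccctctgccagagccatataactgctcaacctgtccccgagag
TJP1 outer start (chr15:29969050-29969299, minus strand): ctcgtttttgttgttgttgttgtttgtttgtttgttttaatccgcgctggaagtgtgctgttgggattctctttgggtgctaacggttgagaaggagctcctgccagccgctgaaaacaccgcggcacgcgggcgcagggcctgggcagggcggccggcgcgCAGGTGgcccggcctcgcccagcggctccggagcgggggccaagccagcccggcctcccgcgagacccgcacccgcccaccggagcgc
TJP1 inner start, upstream (chr15:29822469-29822718, minus strand): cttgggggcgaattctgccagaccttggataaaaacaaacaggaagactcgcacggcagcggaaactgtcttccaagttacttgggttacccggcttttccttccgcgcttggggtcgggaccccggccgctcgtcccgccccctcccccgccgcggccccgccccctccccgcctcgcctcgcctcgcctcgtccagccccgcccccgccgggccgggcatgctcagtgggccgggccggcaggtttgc
TJP1 inner start, downstream (chr15:29821480-29821729, minus strand): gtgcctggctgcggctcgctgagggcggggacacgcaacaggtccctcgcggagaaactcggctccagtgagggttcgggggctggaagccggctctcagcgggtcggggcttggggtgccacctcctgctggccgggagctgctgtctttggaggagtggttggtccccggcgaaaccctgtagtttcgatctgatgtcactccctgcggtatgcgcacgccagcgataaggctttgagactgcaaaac

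Composition varied over the 8 windows, against medians of 62% GC and 16 CpG dinucleotides over 22131 promoter windows. The window of the innermost TJP1 start had the lowest values, with 34.8% GC and 2 CpG, and the CLDN4 promoter came next with 58.8% and 4. The other 6 ranged from 64.8% to 70.8% GC and from 19 to 28 CpG. The CLDN4 letters held 2 AP-1 matches, 242 and 161 bases before the start, and 1 AGGTCA match on the opposite strand at 219 bases. The OCLN and outer TJP1 promoters each held 1 E-box match on the opposite strand, 33 and 88 bases before the start. Of the unprinted windows, that of the second OCLN start held an E-box match at 133 bases and that of the innermost TJP1 start an AGGTCA match at 130 bases. CLDN1 and the 2 printed inner TJP1 windows held none of the 4 motifs, and none of the 8 windows held a grainyhead match. No matches overlapped each other in the printed windows. Over all windows, 17.1% held the E-box, 1.42% the grainyhead site, 5.35% the AP-1 site and 10.5% the AGGTCA half-site, so these letters are a description and not evidence of a bound factor.

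The deposited data are 3 peak lists, 1 per group, each joined by the authors from both samples, with 7103 peaks for vehicle, 12385 for T3 at 6 h and 60661 for T3 at 24 h. A peak has a signal in each of 2 replicate columns, of a normalisation that the labels do not describe. The sum of both is printed below with each column's value and with its percentile within its own list, and signals are not compared between lists. Replicate summits lay within 100 bp of each other in 38.3% of vehicle peaks, 29.4% of 6 h peaks and 70.5% of 24 h peaks. Read depth is unknown, no value exists where a list has no peak, and 1 joint list per group allows no test, so a gene without a peak is not thereby shown to be closed. Of 8 thyroid follicular markers, 5 (62.5%) had a 24 h peak within 1 kb of a gene boundary (TSHR, PAX8, NKX2-1, FOXE1 and HHEX), near the 60.8% of all protein-coding genes, and TG and SLC5A5 were among those without. The same count was 2 of 6 fibroblast, 1 of 4 endothelial and 1 of 4 blood cell markers.

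Gene-end peaks were found at 3 of the 10 genes (EPCAM, CLDN1 and OCLN), in the 24 h list alone, and at 0 of 10 in the vehicle and 6 h lists. Among all protein-coding genes the shares with a gene-end peak were 1.34%, 10.8% and 60.8% in the 3 lists, so the share of 30% at 24 h was below that of all genes. All 3 are junction or adhesion genes (3 of 6), and no regulator had one (0 of 4). With a limit of 2 kb, ESRP2 and OVOL1 were added and the counts were 3 of 6 and 2 of 4, so this contrast rests on the 1 kb limit. The share of all genes at 2 kb was not computed. A peak inside the gene boundaries was present for 0 genes in vehicle (7.59% of all genes), for OCLN, TJP1 and OVOL1 at 6 h (17.5%), and for CDH1, OCLN, TJP1 and GRHL2 at 24 h (56.2%). A peak anywhere in the locus was present for 2 genes in vehicle (EPCAM and OCLN; 33.1% of all genes), 6 at 6 h (66.8%) and all 10 at 24 h (97.6%). Each of these counts lay within 2 genes of what the share of all genes would give, except the gene-end count at 24 h, which was lower.

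The 10 loci held 4 vehicle peaks, 12 at 6 h and 100 at 24 h. The median gene of the 10 had 0, 1 and 9 locus peaks, and the median of all genes was 0, 1 and 8. Per 100 kb of locus the median at 24 h was 3.71 peaks, against 3.34 for all genes. The genes differed widely around that median. CLDN4 had the densest locus with 8.43 peaks per 100 kb, at percentile 98.9 of all genes, and OVOL1 followed with 6.66 at percentile 93.3. A locus count does not assign peaks to the gene: most 24 h peaks of these loci were nearest to other genes. ESRP1 and GRHL2 were the sparsest, with 0.75 and 1.29 peaks per 100 kb at percentiles 6.97 and 13.6. The remaining 6 lay between 3.01 and 4.59.

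**Figure D1:**
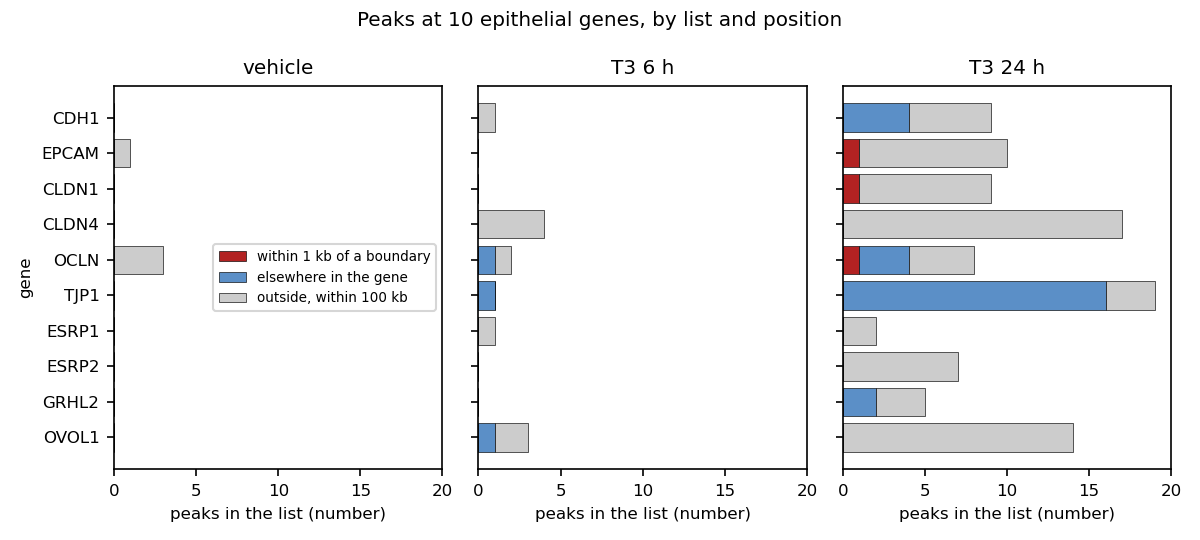
Number of peaks (horizontal axis, count) in the locus of each of the 10 genes in the vehicle, T3 6 h and T3 24 h lists, divided into gene-end, body and flank peaks. At 24 h the counts run from 2 at ESRP1 to 19 at TJP1, and gene-end peaks are seen at EPCAM, CLDN1 and OCLN alone.

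The 100 peaks at 24 h comprised 3 gene-end, 25 body and 72 flank peaks, unevenly placed over the genes. The 6 junction genes held 72 peaks, of which 23 lay in the gene body, 16 of them in TJP1. The 4 regulators held 28, of which 2 lay in a body, both in GRHL2. Of the 26 flank peaks of the regulators, 16 sat at the end of another gene, against 8 of 46 for the junction genes. The 16 were uneven over the regulators: 10 were at OVOL1, 4 at ESRP2, 2 at ESRP1 and 0 at GRHL2. The shares of these classes, and of flank peaks at the end of another gene, were not computed over all genes. These counts therefore have no background beside them, and the difference between junction genes and regulators was not tested.

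**Figure D2:**
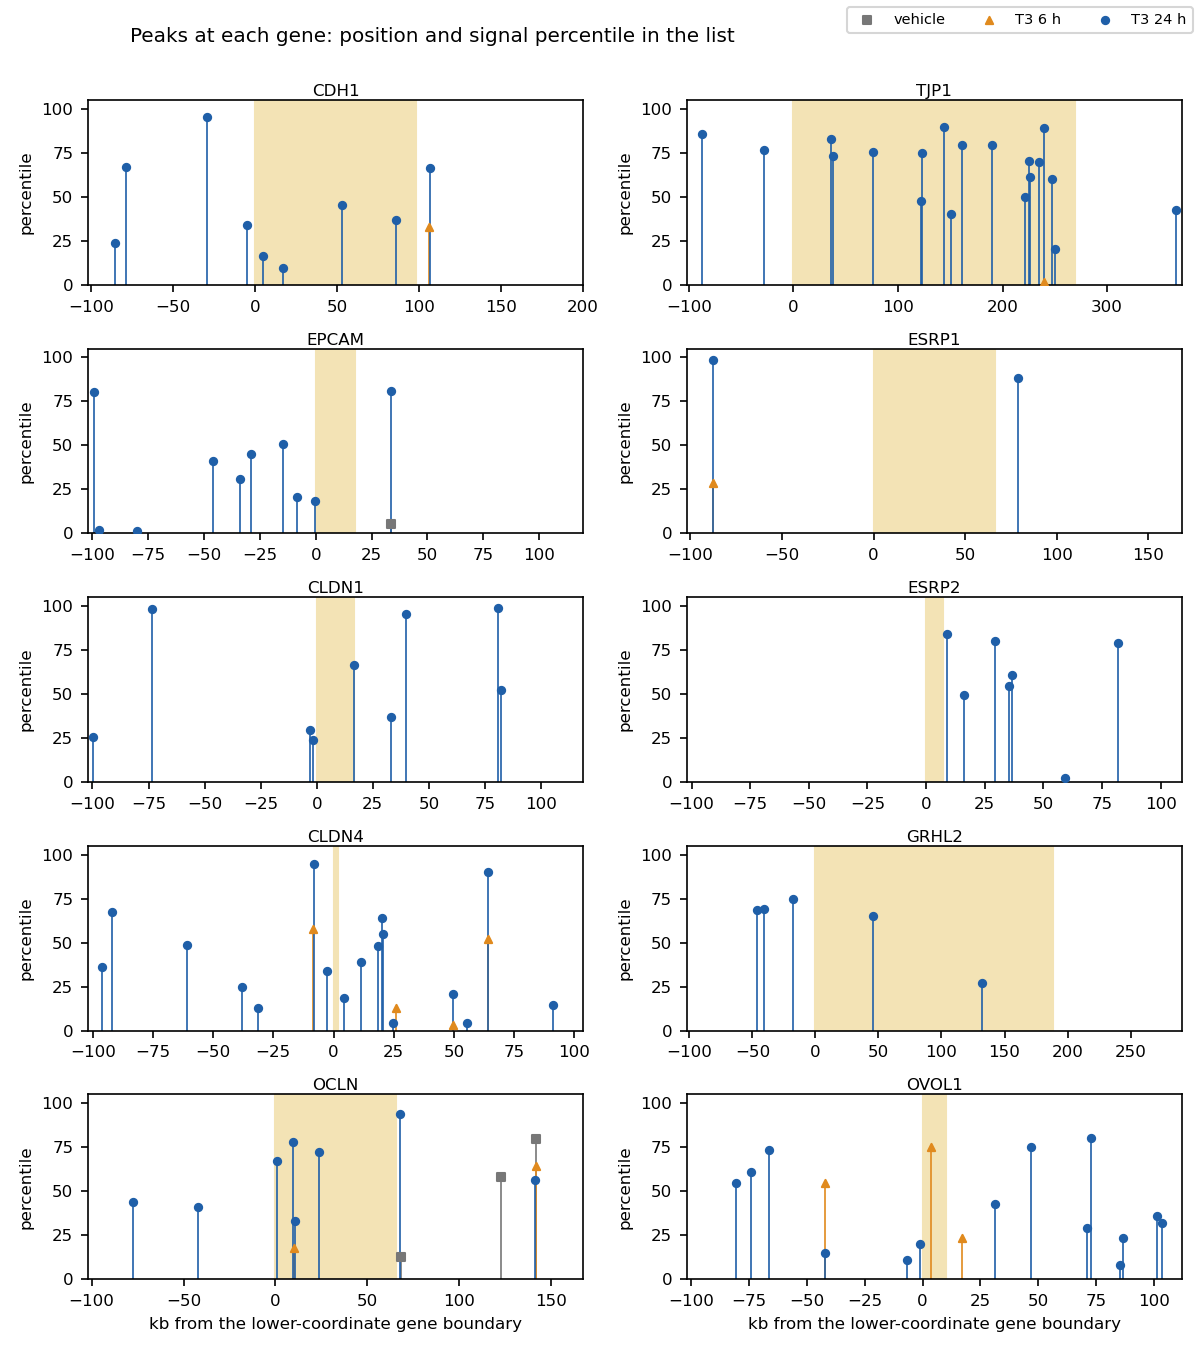
Position of every locus peak along its gene, in kb from the lower-coordinate gene boundary (horizontal axis), and its signal percentile within its list (vertical axis), with the gene shaded. Peaks of TJP1 fill the gene body, while those of EPCAM, CLDN1, CLDN4, ESRP1, ESRP2 and OVOL1 at 24 h lie outside the gene.

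CDH1 encodes E-cadherin, the transmembrane adhesion protein whose loss marks a cell leaving the epithelial state. The gene spans chr16:68737292-68835537 and lacked gene-end peaks in the 3 lists. Its nearest 24 h peak was 4668 bp inside the lower-coordinate boundary (chr16:68741800-68742096), with a signal of 9.11 (4.55 and 4.56 in the 2 replicate columns) at percentile 16.6. The 4 body peaks ranked between percentiles 9.6 and 45.7, all in the lower part of the list. The strongest peak of the locus was a flank peak 29596 bp outside the lower boundary (chr16:68707252-68708098), inside the neighbouring gene CDH3, which encodes P-cadherin, and 26075 bp from its boundary. Its signal was 29.4 (13.8 and 15.6) at percentile 95.5, with replicate summits 13 bp apart. A weaker flank peak 4924 bp outside the same boundary also lay inside CDH3, 1403 bp from its boundary, and ranked at percentile 34.2. The only 6 h peak lay at the end of TANGO6, 8143 bp beyond CDH1, with a signal of 9.58 (4.27 and 5.31) and summits 605 bp apart, and it was shared with a 24 h peak at percentile 66.6. Vehicle had no peak in this locus, the nearest being 1661 kb away.

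EPCAM encodes the epithelial cell adhesion molecule and spans chr2:47369311-47387020. Its 24 h gene-end peak (chr2:47368840-47370111) was centred 206 bp outside the lower boundary. The signal was 9.27 (5.66 and 3.61), at percentile 18.7. The columns ranked it differently, at percentile 43.2 in the first and 2.8 in the second, and the replicate summits were 216 bp apart. This is a weak peak of the list: its irreproducible discovery rate (IDR), 0.028, exceeded 0.01. No peak was found inside the gene. The other 9 peaks at 24 h were flank peaks. One of them, at the far edge of the locus and 99436 bp outside the lower boundary (chr2:47269433-47270152), had a signal of 19.97 (8.31 and 11.7) at percentile 80.5, with both replicate summits at the same base. Of the flank peaks, 6 had EPCAM as the nearest gene, and these ranked between percentiles 1.24 and 51.1.

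CLDN1 encodes claudin-1, a sealing component of tight junction strands, and spans chr3:190305707-190322446 on the minus strand. Its gene-end peak at 24 h (chr3:190321669-190322700) was centred 22 bp upstream of the RefSeq start and covers the whole promoter window printed above. The signal was 15.6 (7.06 and 8.54) at percentile 66.2, with summits 15 bp apart. It was the only one of the 3 gene-end peaks whose replicate summits lay within 100 bp. Stronger peaks stood away from the gene. The strongest of all 100 was 64.1 kb upstream of the start (chr3:190386140-190386726), with a signal of 36.3 (15.6 and 20.7) at percentile 99.0. Another lay 90.3 kb downstream of the start (chr3:190231844-190232458) with a signal of 33.3 (14.6 and 18.8) at percentile 98.1. Closer to the gene, a peak lay 22.9 kb upstream (chr3:190345117-190345531) with a signal of 29.7 (14.2 and 15.5) at percentile 95.7. Their summits agreed to between 3 and 7 bp. By boundary distance the 2 farther ones were nearest to CLDN16, a claudin gene known from kidney, and the closer one to CLDN1 itself. The boundaries of CLDN16 enclose CLDN1, so the strongest peak and the closer one lay inside CLDN16. The vehicle and 6 h lists had no peak in this locus, the nearest being 1083 kb and 368 kb from the gene.

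CLDN4 encodes claudin-4, a barrier-forming claudin, and is a short gene at chr7:73830996-73832690. It had the most flank peaks of the 10 genes, 17 at 24 h, yet none at its ends or inside it. The nearest was 2648 bp upstream of the start (chr7:73828195-73828526), with a signal of 10.5 (4.65 and 5.88) at percentile 33.8. The strongest was 8251 bp upstream (chr7:73822377-73823282), with a signal of 28.6 (14.8 and 13.8) at percentile 94.8 and summits 7 bp apart. The same interval was present at 6 h, with a signal of 10.5 (4.45 and 6.02) at percentile 57.8 and summits 212 bp apart. A second strong 24 h peak (chr7:73894470-73895432), nearest to TMEM270, lay 64.1 kb downstream of the start, with a signal of 24.97 (12.4 and 12.5) at percentile 90.3. It too had a 6 h counterpart, at percentile 51.8. Of the 4 CLDN4 peaks at 6 h, 3 were shared with 24 h, and vehicle had none. CLDN4 was the nearest gene only to the 24 h peaks 2648 and 8251 bp upstream. The others were nearest to ABHD11, CLDN3, METTL27 or TMEM270. Some lay at the ends of these genes: 219 bp from a boundary of ABHD11, 311 bp from CLDN3, and 23 and 790 bp from METTL27.

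OCLN encodes occludin, a MARVEL-domain membrane protein of tight junctions, and spans chr5:69492547-69558104. Its 24 h gene-end peak (chr5:69492244-69494247) was 2004 bp wide and covered the promoter window printed above and both RefSeq starts of the gene. The signal was 15.9 (7.43 and 8.45) at percentile 67.4. The replicate summits lay 950 bp apart, so the peak covers the start but its highest point is not fixed within the interval. Of 3 body peaks at 24 h, the strongest was 9505 bp after the start with a signal of 18.9 (8.29 and 10.7) at percentile 77.8. One of the others (chr5:69502390-69503356, percentile 32.9) was shared with a 6 h peak at percentile 17.9, whose columns read 3.72 and 5.43. The strongest flank peak, 27.7 (12.6 and 15.1) at percentile 93.9, stood 23 bp from the boundary of GTF2H2C, a gene for a subunit of the general transcription factor TFIIH, and was shared with a vehicle peak at percentile 12.3. GTF2H2C has near-identical copies in the genome, and how reads with several matches were placed is not stated by the labels. A broad interval (chr5:69631543-69636049) was present in all 3 lists, with replicate summits 1537, 611 and 2071 bp apart in vehicle, 6 h and 24 h. It was the only locus peak of the 10 genes found in all 3 lists.

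TJP1 encodes ZO-1, the scaffold that anchors claudins and occludin, and is the longest of the 10 genes (chr15:29699367-29969049, minus strand). Its outermost start had no peak within 1 kb in any list: the nearest 24 h peak was 19.4 kb inside the gene. At 24 h 16 peaks lay in the body, ranking between percentiles 20.5 and 90.0. A pair of them sat on inner RefSeq starts, 147 kb and 148 kb from the outermost one. The peak at the more upstream inner start (chr15:29821986-29823284) was centred 79 bp after it, with a signal of 18.03 (9.58 and 8.45) at percentile 75.1 and summits 99 bp apart. The peak at the more downstream one (chr15:29821462-29821755) was centred 97 bp before it, with a signal of 12.1 (5.74 and 6.40) at percentile 47.7 and summits 3 bp apart. The intervals cover the inner promoter windows printed above. The strongest TJP1 peak lay 125193 bp from the outermost start (chr15:29843738-29844883), away from any listed start, with a signal of 24.7 (10.8 and 13.98) at percentile 90.0. The only 6 h peak, 8.60 (4.74 and 3.85) at percentile 1.95, overlapped the 24 h peak that ranked next, 24.3 (12.95 and 11.3) at percentile 89.3. Vehicle had no TJP1 locus peak.

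**Figure D3:**
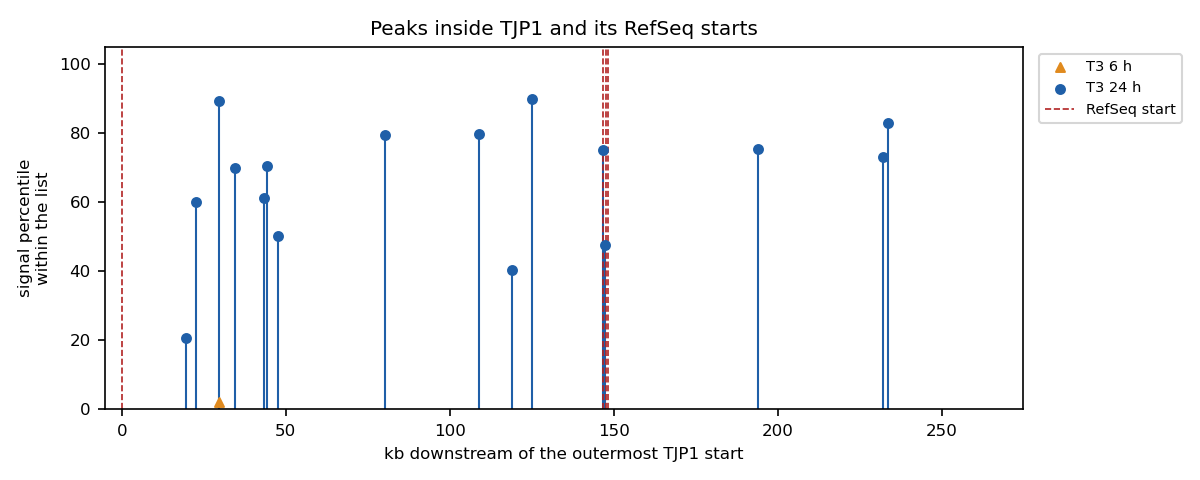
Peaks inside TJP1 in the T3 6 h (triangle) and T3 24 h (circles) lists, by distance from the outermost RefSeq start (kb, horizontal axis) and signal percentile within the list (vertical axis); dashed lines mark the 4 RefSeq starts. The outermost start has no peak within 1 kb. The inner starts 146.6 and 147.6 kb from it lie at 24 h peaks of percentiles 75.1 and 47.7. No peak interval covers the innermost start, which is 902 bp from the nearest 24 h peak.

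Counted by RefSeq starts rather than by outer boundaries, 6 of the 8 starts of CLDN1, CLDN4, OCLN and TJP1 had a 24 h peak within 1 kb, and none had one in vehicle or at 6 h. The shares over 22131 RefSeq starts of protein-coding genes were 1.08% in vehicle, 10.4% at 6 h and 59.3% at 24 h. Several of these starts share a peak: OCLN's 2 starts lie within 1 interval, and TJP1's 3 inner starts are served by 2 peaks. When the starts of these 4 genes were counted beside the outer boundaries of all 10, TJP1 was added to EPCAM, CLDN1 and OCLN, a count of 4 chosen after seeing the data. Inner starts of the other 6 genes were not analysed here.

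ESRP1 and ESRP2 encode the epithelial splicing factors that direct, among others, the epithelial isoforms of FGFR2 and CD44. ESRP1 had 2 locus peaks at 24 h, neither of them at or in the gene. One lay 87.6 kb away, 145 bp from the boundary of VIRMA, a subunit of the RNA m6A writer complex, with a signal of 35.0 (13.3 and 21.7) at percentile 98.7. The VIRMA peak was shared with the only 6 h peak of the locus, 9.46 (4.74 and 4.72) at percentile 29.0. The other lay 12.3 kb away at the boundary of DPY19L4, with a signal of 23.6 (9.62 and 13.99) at percentile 88.2. Both are strong peaks of the list at neighbours' ends, and the gene itself had none.

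ESRP2 (chr16:68229033-68236127) had 7 peaks at 24 h, all on its upper-coordinate side, and none in vehicle or at 6 h. The nearest (chr16:68237154-68238154) was 1651 bp beyond the upper boundary, just past the 1 kb limit, with a signal of 21.6 (9.73 and 11.9) at percentile 84.3 and summits 144 bp apart. ESRP2 was the nearest gene to that peak. The others lay 9.19 to 74.8 kb away and were nearest to PLA2G15, SLC7A6 or SLC7A6OS, 4 of the 6 within 1 kb of a boundary of those genes.

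GRHL2 encodes the grainyhead-like factor that opens epithelial enhancers, CDH1 and CLDN4 among its known targets. It was listed with 5 peaks at 24 h and none in vehicle or at 6 h, and GRHL2 was the nearest gene to all 5. The strongest lay 18.1 kb outside the gene, with a signal of 17.9 (6.82 and 11.1) at percentile 74.6 and summits 17 bp apart. Flank peaks at 41.0 and 46.1 kb ranked at percentiles 68.8 and 68.5. In the body, a peak 45.9 kb from the nearer boundary had a signal of 15.3 (5.66 and 9.62) at percentile 64.9, and a weaker one ranked at percentile 26.8 with summits 305 bp apart. No GRHL2 peak reached percentile 75 of the list.

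OVOL1 encodes a repressor of mesenchymal genes such as ZEB1 and spans chr11:65787063-65797214. It was the only regulator with a peak inside the gene at 6 h. That peak (chr11:65790326-65791874) lay 3520 bp inside, with a signal of 11.4 (5.96 and 5.49) at percentile 75.3 and summits 50 bp apart, and no 24 h peak overlapped it. By position it was nearest to the boundary of an uncharacterised gene, LOC124902693, 1582 bp away. It was the highest-ranked of the 12 locus peaks at 6 h. Its 2 neighbours at 6 h ranked at percentiles 54.4 and 23.6, and 1 of the 3 had a counterpart at 24 h. At 24 h the nearest peak (chr11:65785565-65786518) was 1296 bp outside the lower boundary, with a signal of 9.34 (5.09 and 4.25) at percentile 19.7. The strongest of its 14 flank peaks, 19.8 (12.3 and 7.55) at percentile 80.2, lay 62.8 kb away at the boundary of MUS81, a DNA repair nuclease gene. The locus is gene-dense, and 10 of the 14 flank peaks lay within 1 kb of a boundary of another gene.

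The limits of 1 kb and 100 kb divide peaks that lie close to one another. The gene-end peaks lay 22 bp (CLDN1), 206 bp (EPCAM) and 665 bp (OCLN) from a boundary, and the nearest peaks just outside the limit lay 1296 bp (OVOL1) and 1651 bp (ESRP2, and a second CLDN1 peak) away. At 100 kb, EPCAM and CLDN1 each had a 24 h peak just inside, at 99436 and 99747 bp, and one just outside, at 102093 and 102380 bp. Within 2 kb, 5 of the 10 genes had a peak at 24 h, and within 500 bp, 2 had one. The shares of all genes at 2 kb and 500 bp were not computed, so these counts have no background beside them.

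Replicate agreement at the 24 h member loci was close to that of the whole list. Summits lay within 100 bp for 75 of 100 locus peaks, against 70.5% of the list, with a median distance of 41.5 bp against 46 bp. At 6 h it was 3 of 12, against 29.4%, with a median of 200.5 bp, and in vehicle 2 of 4. The locus peaks were spread over the ranks: 25 of 100 above percentile 75 of the 24 h list and 22 at or below percentile 25. At 6 h, 1 of 12 was above percentile 75 and 5 were at or below percentile 25, with a median percentile of 30.9. The second replicate column was the higher in 62 of 100 locus peaks at 24 h and in 39243 of 60661 peaks of the list.

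**Figure D4:**
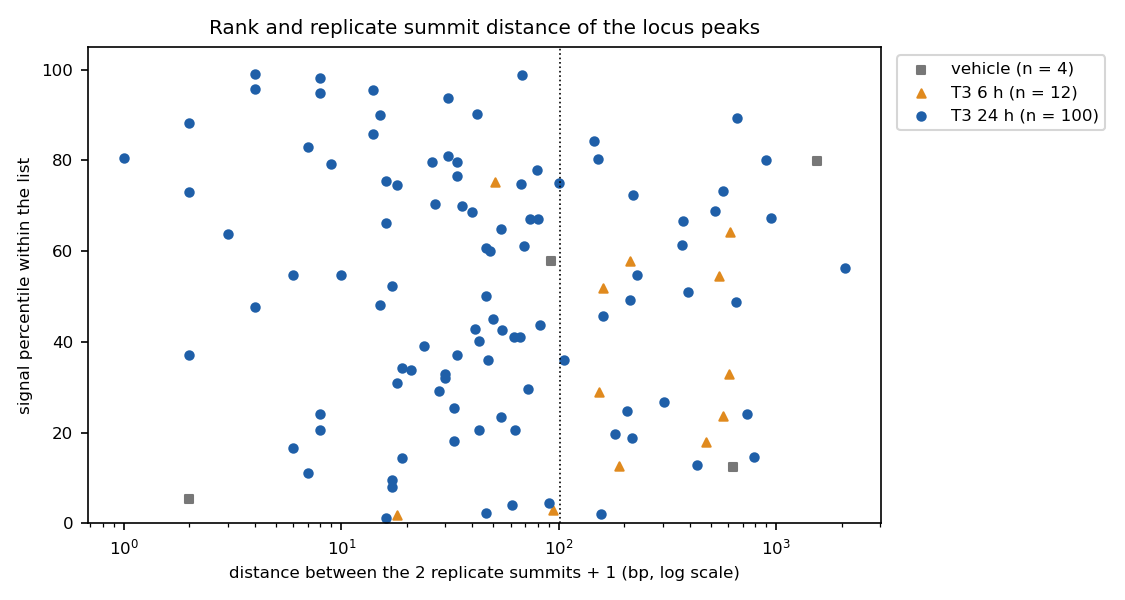
Signal percentile within its list (vertical axis) and distance between the 2 replicate summits (bp plus 1, horizontal log axis) of each locus peak in the 3 lists. The dotted line marks 100 bp: at 24 h 75 of 100 peaks lie within it, while 9 of 12 at 6 h and 2 of 4 in vehicle lie beyond it.

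Of the 6 h peaks at these genes, many had a counterpart at 24 h in the full lists. By an overlap of at least 50% of the shorter peak, 9 of the 12 had a 24 h counterpart, against 49.3% of the 6 h list, and 1 of 12 had a vehicle counterpart, against 19.2%. With lists of equal length it was 2 of 5 with a 24 h counterpart, and with replicate summits within 100 bp 1 of 3. The share of the whole 6 h list was not computed for these 2 settings. In the full lists, the 3 without a 24 h counterpart were 2 OVOL1 peaks and 1 CLDN4 peak. Of the 100 peaks at 24 h, 3 were shared with vehicle (4.05% of the list) and 9 with 6 h (10.2%). The lists differ in length, in replicate agreement and in width (median 1290, 1160 and 696 bp), and the part of these differences in the sharing was not tested. When every list was limited to its 7103 strongest peaks, 10 of the 100 locus peaks remained at 24 h. This limit kept 11.7% of the whole 24 h list. None of the 10 peaks was at a gene end of the 10 genes, while 16.6% of all genes had a gene-end peak. Those 10 peaks were at CLDN1 (3), CLDN4 (2), TJP1 (2), CDH1, OCLN and ESRP1 (1 each).

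The junctions hold many more proteins than these. In a wider list of 43 junction, polarity and regulator genes, 1 had a gene-end peak in vehicle, 4 at 6 h and 23 at 24 h (53.5%, against 60.8% of all genes). The catenins, which link cadherins to actin, led the adherens group, in which 6 of 9 had a 24 h peak: CTNNB1 with a signal of 24.9 at percentile 90.2, and CTNND1 with 20.4 at percentile 81.6. In the tight junction group 8 of 13 had one, led by CLDN12 with 31.0 and CLDN23 with 25.4. Of the 5 desmosome genes, 4 had one, led by DSG2 with 15.3 and DSP with 14.9. Of the 8 regulators, 2 had one (KLF4 with 15.5 and GRHL1 with 14.2). The polarity and surface group had 3 of 8, led by SPINT2 with 16.7 and SPINT1 with 9.11. A 24 h peak inside the gene was present for 7 of the 8 regulators and 34 of all 43, against 56.2% of all genes. The median gene length was 38.6 kb for the 8 regulators and 35.0 kb for the 43, against 24.2 kb for all genes. The part of gene length in these counts was not tested.

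Gene-end peaks outside the 24 h list were few in the wider list too. In vehicle the single one was at PKP3, a desmosomal plakophilin, with a signal of 9.59. Those at 6 h included JUP (plakoglobin) with 8.41, CGN (cingulin) with 9.87 and F11R (JAM-A) with 11.97. PKP3 and CGN had no such peak at 24 h. Of these 4 named peaks, JUP had replicate summits 100 bp apart, and the other 3 were 176 bp (CGN), 177 bp (PKP3) and 375 bp (F11R) apart. Among 16 mesenchymal genes, 0, 1 and 12 had a gene-end peak in vehicle, at 6 h and at 24 h, the 6 h one being at ZEB1, which was named after its value was seen. The order of the lists at 24 h turned with the setting. With replicate summits within 100 bp, 25% of the mesenchymal, 37.2% of the wider epithelial and 43.5% of all genes had a gene-end peak, and with lists of equal length the shares were 6.25%, 6.98% and 16.6%. No list was tested against the others.

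**Figure D5:**
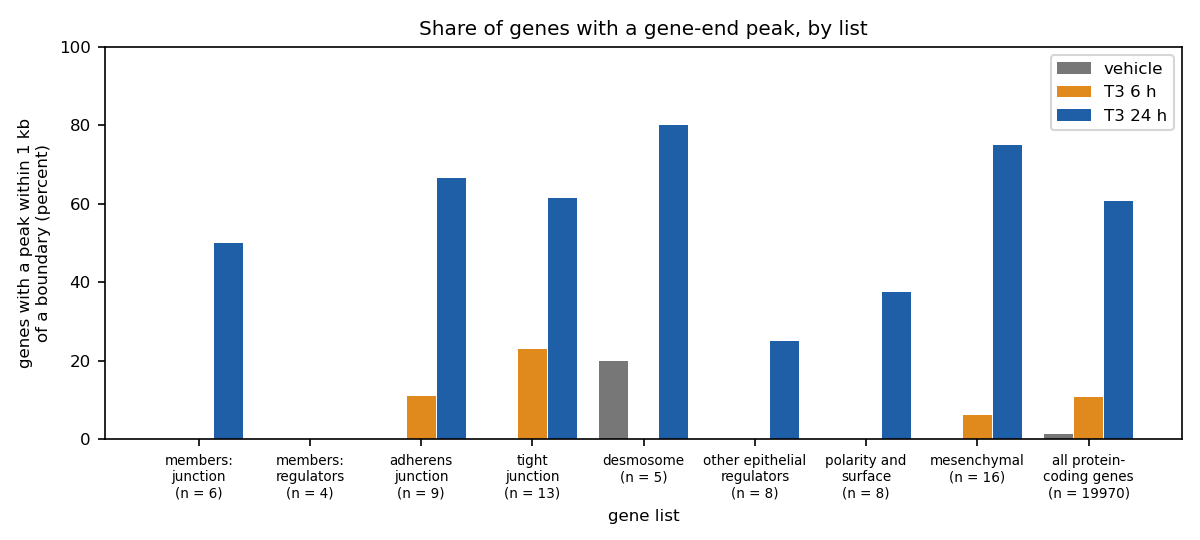
Share of genes (percent, vertical axis from 0) with a gene-end peak in each list, for the 6 junction genes and 4 regulators described here, the wider epithelial genes by role, 16 mesenchymal genes and all 19970 protein-coding genes. At 24 h the share is 50% for the 6 junction genes, 0% for the 4 regulators, 75% for the mesenchymal genes and 60.8% for all genes, an order that the settings named above change.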

How the data were processed

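The 6 samples form 3 groups of 2 by their labels. Per the submitters' processing notes, the authors used hg38, Bowtie2, MACS2 and DiffBind, with Trim Galore and CASAVA 1.7. The sources used here give no settings, Tn5 shift, duplicate handling or blacklist. The 3 lists deposited by the authors have 20 columns in the layout of IDR output, so peaks of both samples were joined before deposit. The deposited score is the scaled IDR, and the deposited −log10 values give the IDR, at most 0.05 for every peak. The deposited signal is the sum of the 2 replicate columns, which carry no sample name. The other deposited columns are positions of peaks and summits per replicate. Sequencing depth is unknown.

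A peak's position was the mean of its 2 replicate summits. It was placed on genes with Python 3.11.15, numpy 2.4.6 and pandas 2.3.3, and the signal was ranked within its list. Peaks were shared at 50% of the shorter peak. This step was checked on simulated peaks with known overlaps, and on the deposited lists against bedtools 2.31.1. Gene coordinates and promoters are RefSeq's (GRCh38.p14). Figures used matplotlib 3.10.9. With 1 joint list per group no test was run. All 10 members are named; from the wider list, the 2 genes of each role with the strongest 24 h gene-end peak and every gene with one in vehicle or at 6 h; other genes where nearest to a described peak. A few items are not reported here. The members and lists were chosen with earlier results of these data known. Alternatives covered the IDR limit, list length, single replicate columns, summit agreement, peak position, distance limits and the overlap rule.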

Additional observations from a re-analysis of the deposited data

How the results depend on the processing

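No paired analysis was possible because each group has 1 joint list and no result comes from a test. Of 75 alternative values for the 9 main counts, 48 stayed within 1.5 times the reported value and 27 did not. Part of the 48 could not differ. A count of 0 stays 0 where a setting only removes peaks, and the vehicle list itself sets the equal length. The 3 genes with a 24 h gene-end peak became 0 with lists of equal length (7103 peaks) and 0 to 0 when equal lists were ranked by 1 replicate column, 1 (CLDN1) with summits within 100 bp, 2 within 500 bp, 2 at an IDR of at most 0.01 (EPCAM lost) and 5 within 2 kb. Adding the RefSeq starts of the 4 genes matched in the promoter table, chosen after seeing the data, gave 4. Shares of all genes were not computed for the IDR, 1-column, 500 bp and 2 kb settings. The 4 vehicle locus peaks became 2 at the IDR limit, 2 with close summits and 2 within 50 kb. The 12 at 6 h became 2 at the IDR limit, 5 with equal lists, 6 to 8 by 1 column and 3 with close summits. The 100 at 24 h became 10 with equal lists and 10 to 11 by 1 column. Equal lists kept 11.7% of all 24 h peaks. The 3 peaks of 24 h shared with vehicle became 1 at the IDR limit, 1 with equal lists, 1 to 1 by 1 column and 1 with close summits. The 9 peaks of 6 h shared with 24 h became 1 at the IDR limit, 2 with equal lists, 1 to 4 by 1 column and 1 with close summits. The 1 peak of 6 h shared with vehicle became 0 with close summits and 0 within 50 kb. Sharing of the whole lists was not computed under these settings. Each of these settings leaves fewer peaks or moves a distance limit. The vehicle and 6 h counts at the member loci are small, and depth limits what a missing peak can show.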

Other observations

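Some neighbours of the 10 genes are junction genes themselves. CLDN3, a claudin gene 61.0 kb from CLDN4, had a 24 h peak 311 bp from its boundary (chr7:73769311-73770942) with a signal of 12.3 (4.61 and 7.69) at percentile 48.8, and its replicate summits lay 655 bp apart. MARVELD2 encodes tricellulin, the MARVEL protein of contacts between several cells, and neighbours OCLN. It had a 24 h peak 72 bp from its boundary (chr5:69414866-69415684) with a signal of 11.6 (6.03 and 5.61) at percentile 43.8 and summits 81 bp apart. CDH3, the cadherin gene next to CDH1, was the nearest gene to 4 of the 9 CDH1 locus peaks at 24 h, and all 4 lay inside CDH3, none of them within 1 kb of its boundary. These neighbours were chosen after their values were seen.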
